A study of Homo sapiens with 4 samples.

Results

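The 4 tropomyosin genes (TPM1, TPM2, TPM3 and TPM4) were examined together with 6 genes whose products work on the same filaments: the alpha-actinins ACTN1 and ACTN4, the transgelins TAGLN and TAGLN2, caldesmon (CALD1) and the myosin regulatory light chain MYL9. They were picked by symbol, and each had 1 row among the 18398 transcript rows of every library, so the set held 10 of 18398 rows. TPM4 was selected because its siRNA difference was the strongest when set against the disagreement between the cell lines. The others were selected because they belong to the same family or filament. The siRNA differences of the 10 genes are therefore given as a description, with no test. RNA came from Huh1 and Huh7 cells, established human hepatocellular carcinoma lines, transfected with 15 nM of CDCA8siRNA or NCsiRNA and taken 48 h later. NCsiRNA is a control that targets no transcript of the cell, and CDCA8siRNA targets CDCA8, which encodes borealin, a subunit of the chromosomal passenger complex that guides chromosomes and cytokinesis in mitosis. The dose, the time and the siRNA variant (CDCA8-1) were given by the study and not by the labels. There was 1 library for each line and siRNA, 4 in all, from 1 siRNA sequence against CDCA8, so the spread between cultures could not be measured.

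Tropomyosins are coiled-coil proteins that lie end to end along actin filaments and govern which myosins and filament-severing proteins reach them. Alpha-actinins tie filaments into bundles, transgelins and caldesmon bind along their sides, and the regulatory light chain switches on non-muscle myosin II when it is phosphorylated. In cultured epithelial cells these proteins meet in stress fibres, the contractile bundles anchored at focal adhesions, and many of their genes are known targets of serum response factor (SRF), which binds the CArG box.

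The values were RPKM, reads scaled to transcript length and library depth, which allows levels to be compared between genes. The libraries held an estimated 12197606 to 13384836 reads, and between 2568 and 3169 rows were at 0. The siRNA target CDCA8 was at 24.1 RPKM with NCsiRNA and 5.86 with CDCA8siRNA in Huh1, and at 51.5 and 7.36 RPKM in Huh7, which matches the labels in both lines. All 13 hepatocyte markers reached 1 RPKM in every library. Their summed level, with ALB the highest, was lower with CDCA8siRNA in both lines. It was 6731 against 5687 RPKM in Huh1 and 3874 against 2785 RPKM in Huh7. In Huh1, APOA2 (1072 and 1336 RPKM) and AFP (24.8 and 27.5 RPKM) were higher with CDCA8siRNA, and the other hepatocyte markers were lower. In Huh7, TTR was higher (29.3 and 48.5 RPKM), APOA2 was nearly equal (163.3 and 164.1 RPKM) and the other hepatocyte markers were lower. None of the endothelial markers reached 1 RPKM. The part of the hepatocyte markers in the results below was not tested, and in bulk RNA fewer cells of a type and less RNA per cell cannot be told apart. A sampling SD or interval below covers the counting of reads only, since it was computed from the estimated number of reads behind a value.

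The start regions of TPM4 are shown first, because TPM4 had the largest siRNA difference and the gene has more than 1 start. In RefSeq on GRCh38.p14 the gene spans chr19:16067538-16103002 on the plus strand. The transcript that labels its row here, NM_003290, has 8 exons and a start at position 16076306 in GENCODE. Whether the value counts that transcript alone or other transcripts of TPM4 too is not given in the sources used here. Windows of 300 bases, 250 before a start and 50 from it on, were found for 8 of the 10 genes, 21 windows in all, and TAGLN and MYL9 had none and were not searched. A CArG box was found in 2 of these 21 windows, and in 454 of all 35116 windows of the reference (1.29%). One lay upstream of the first start of TPM4, beginning at -173, and the other at a start inside ACTN1, beginning at -171. The windows are written 5' to 3' on the strand of the gene, with the CArG box in capitals. The last window has no match and belongs to another RefSeq start of TPM4, a little downstream of position 16076306. It is shown because that position lies inside it, near its 5' end, so it holds little of the sequence upstream of the start of NM_003290.
TPM4 first start, chr19:16067288-16067587, plus strand: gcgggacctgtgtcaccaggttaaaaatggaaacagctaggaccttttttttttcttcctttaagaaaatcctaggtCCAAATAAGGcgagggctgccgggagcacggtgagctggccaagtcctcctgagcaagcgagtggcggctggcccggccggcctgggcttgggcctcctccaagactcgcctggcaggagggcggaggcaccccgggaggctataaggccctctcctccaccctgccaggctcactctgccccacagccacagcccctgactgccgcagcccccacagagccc
ACTN1, chr14:68977517-68977816, minus strand: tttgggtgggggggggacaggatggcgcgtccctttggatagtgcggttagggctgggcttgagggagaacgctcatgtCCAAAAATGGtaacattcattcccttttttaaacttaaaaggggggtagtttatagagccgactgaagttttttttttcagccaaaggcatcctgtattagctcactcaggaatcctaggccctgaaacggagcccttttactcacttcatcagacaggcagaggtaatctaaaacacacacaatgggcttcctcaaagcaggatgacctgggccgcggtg
TPM4 window holding position 16076306, chr19:16076245-16076544, plus strand: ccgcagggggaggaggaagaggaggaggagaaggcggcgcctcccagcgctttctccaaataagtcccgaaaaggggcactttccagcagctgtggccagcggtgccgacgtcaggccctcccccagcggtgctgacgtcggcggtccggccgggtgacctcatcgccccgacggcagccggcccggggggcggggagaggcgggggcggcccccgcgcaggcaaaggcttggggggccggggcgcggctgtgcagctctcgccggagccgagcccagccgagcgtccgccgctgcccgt
A TEAD motif (GGAATG, either strand) was found in 3 of the 21 windows, namely 2 of CALD1 and the ACTN1 window above, against 14.0% of all windows. An AP-1 site (TGANTCA, either strand) was found in 4 of the 21, namely 2 of TAGLN2, 1 of CALD1 and 1 of ACTN4, against 7.71% of all windows. These are matches of letters in a reference and carry no measurement of binding. The transcript that labels the ACTN1 row, NM_001102, has its start at position 68979440 in GENCODE. Neither window with a CArG box thus holds the start of the transcript that labels its row. TPM4 and ACTN1 had siRNA differences of opposite direction, and whether the CArG boxes have a part in either was not tested.

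TPM4, a tropomyosin found in most non-muscle cells, was at 19.1 RPKM with NCsiRNA and 77.3 RPKM with CDCA8siRNA in Huh1. In Huh7 it was at 169.5 RPKM with NCsiRNA and 563 RPKM with CDCA8siRNA. The CDCA8siRNA library was thus the higher in both lines, while the Huh7 control library stood above both Huh1 libraries. The ratio of RPKM was 4.04 in Huh1 (95% sampling interval 3.72 to 4.39) and 3.32 in Huh7 (3.22 to 3.42). On the log2(RPKM + 1) scale the difference was 1.96 in Huh1 (sampling SD 0.059) and 1.73 in Huh7 (sampling SD 0.022). It ranked first among 10940 genes compared in Huh1 and 6th among 11565 in Huh7. An estimated 683 and 2719 reads lay behind the Huh1 values, and 5513 and 18419 behind those of Huh7.

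TPM4 came first when genes were ordered by the strength of the siRNA term in limma, which sets the mean difference against the disagreement between the lines moderated over all genes. This order is given as a description of the choice, not as a test. The next in this order were all lower with CDCA8siRNA. VTA1 was at 25.98 and 8.15 RPKM in Huh1 and at 33.1 and 7.19 RPKM in Huh7. CDCA8 itself followed, and then SETD8, at 15.2 and 5.35 RPKM in Huh1 and at 25.4 and 7.44 RPKM in Huh7.

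**Figure D1:**
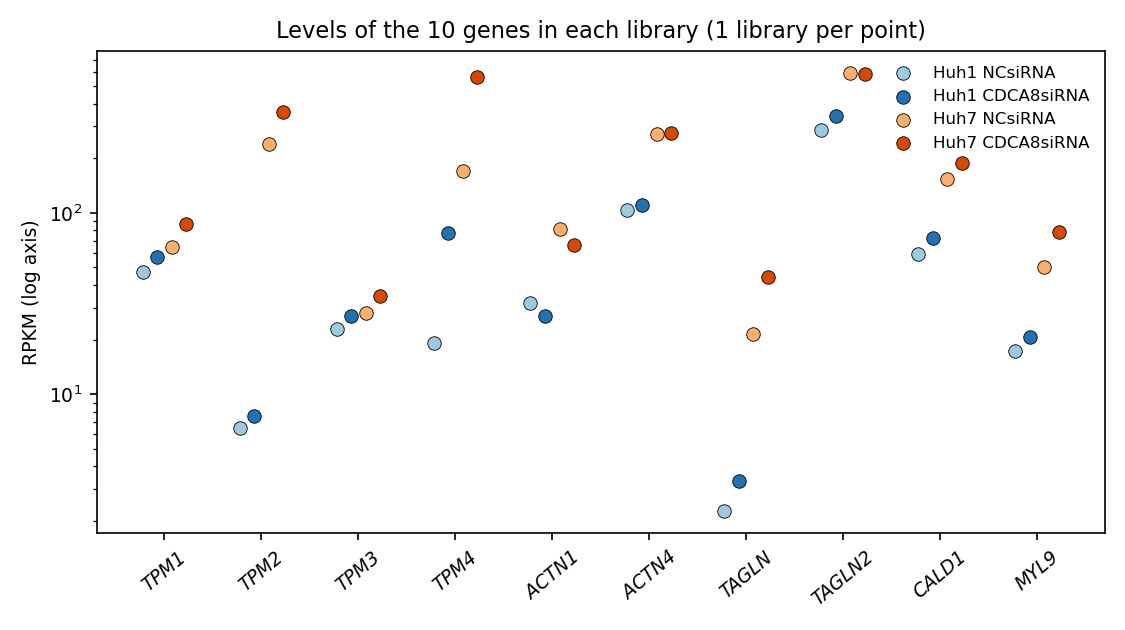
Level of each of the 10 genes in RPKM on a log axis, with 1 point per library (light and dark blue, Huh1 with NCsiRNA and CDCA8siRNA; light and dark orange, Huh7 with NCsiRNA and CDCA8siRNA). TPM4 runs from 19.1 to 563 RPKM, and the gap between the lines is widest for TPM2, followed by TAGLN and TPM4.

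The other tropomyosins differed far less between the siRNAs. TPM1, which muscle and non-muscle cells make in many spliced forms, was at 47.0 and 56.8 RPKM in Huh1 and at 64.6 and 87.2 RPKM in Huh7, NCsiRNA first. Its ratio was 1.21 in Huh1 (1.09 to 1.35) and 1.35 in Huh7 (1.23 to 1.48). Both intervals lay above 1, so the difference was larger than the sampling of reads alone gives.

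TPM2, the beta-tropomyosin, was at 6.53 and 7.62 RPKM in Huh1 and at 241 and 361 RPKM in Huh7. In Huh1 the ratio of 1.17 had an interval that included 1 (0.915 to 1.49), with an estimated 122 and 140 reads, so a difference was not detectable at this depth. In Huh7 the ratio was 1.5 (1.44 to 1.56). TPM3 was at 22.8 and 27.1 RPKM in Huh1 and at 28.1 and 34.8 RPKM in Huh7, with ratios of 1.19 (1.05 to 1.35) and 1.24 (1.10 to 1.39). TPM3 had the narrowest range of the 10 genes over the 4 libraries in RPKM. Its reads may be shared with near-identical processed copies elsewhere in the genome, and how the authors' counting split such reads is not given in the sources used here.

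Summed over the 4 genes, tropomyosin mRNA was at 95.5 RPKM with NCsiRNA and 168.9 RPKM with CDCA8siRNA in Huh1, a ratio of 1.77. In Huh7 the sum was 503 and 1046 RPKM, a ratio of 2.08. TPM4 made up 79.2% of the gain in Huh1 and 72.6% in Huh7. Without it, the sum was at 76.3 and 91.6 RPKM in Huh1 (ratio 1.20) and at 333.7 and 482.5 RPKM in Huh7 (ratio 1.45).

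The makeup of the family differed between the lines as well as between the siRNAs. In Huh1 with NCsiRNA, TPM1 held 49.2% of the summed RPKM, TPM3 23.9%, TPM4 20.0% and TPM2 6.84%. With CDCA8siRNA, TPM4 held the largest share at 45.8%, followed by TPM1 at 33.7%. In Huh7 with NCsiRNA, TPM2 held 47.9%, TPM4 33.7%, TPM1 12.8% and TPM3 5.58%. With CDCA8siRNA, TPM4 again held the largest share at 53.9%, and TPM2 was next at 34.5%. These shares are per length. By estimated reads, where longer transcripts weigh more, TPM4 held 36.3% and 65.7% in Huh1 and 50.6% and 70.1% in Huh7. By this measure it was already the largest in both control libraries. In Huh1 with NCsiRNA the order was close, at an estimated 683 reads for TPM4 and 614 for TPM1. It depends there on the transcript lengths used for the estimate.

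**Figure D2:**
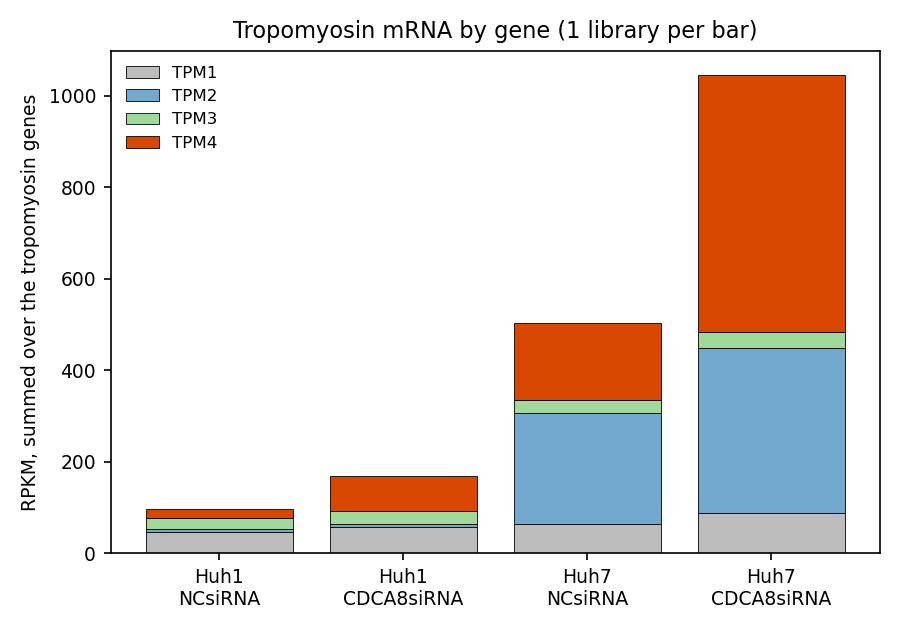
RPKM summed over the tropomyosin genes in each library (1 library per bar, segments coloured by gene). The bars reach 95.5 and 168.9 RPKM in Huh1 and 503 and 1046 RPKM in Huh7, and the TPM4 segment holds 45.8% and 53.9% of the bars with CDCA8siRNA.

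The alpha-actinins had small differences, and those of ACTN1 were below 0. ACTN1, which bundles filaments in stress fibres and at adhesions, was at 31.7 and 27.2 RPKM in Huh1 and at 81.4 and 66.4 RPKM in Huh7. It was lower with CDCA8siRNA in both lines, and was the only one of the 10 genes of which that holds. The ratio was 0.857 in Huh1 (0.797 to 0.921) and 0.816 in Huh7 (0.778 to 0.855). ACTN4, its broadly expressed relative, was at 103.7 and 110.7 RPKM in Huh1 and at 271 and 275 RPKM in Huh7. Its ratios were the nearest to 1 over both lines, at 1.07 (1.03 to 1.10) and 1.02 (0.994 to 1.04). The sum of both genes had ratios of 1.02 and 0.97, and the share of ACTN1 in it was 23.4% and 19.7% in Huh1 and 23.1% and 19.4% in Huh7.

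TAGLN, also called SM22 and best known from smooth muscle, was the lowest of the 10 genes in 3 libraries. It was at 2.27 and 3.31 RPKM in Huh1, from an estimated 28 and 41 reads, and the ratio of 1.46 had an interval of 0.902 to 2.36. In Huh7 it was at 21.4 and 44.4 RPKM, a ratio of 2.07 (1.78 to 2.42) and a log2(RPKM + 1) difference of 1.02 (sampling SD 0.11). TAGLN and TPM4 were the genes of the 10 that passed 2-fold in Huh7, and in Huh1 TPM4 alone did. Of the smooth muscle markers, CNN1 was at 6.67 and 15.3 RPKM and ACTG2 at 1.87 and 6.27 RPKM in Huh7, and both were under 0.1 RPKM in Huh1. SMTN, the most abundant of them, was at 10.8 and 10.9 RPKM in Huh1 and was lower with CDCA8siRNA in Huh7, at 47.9 and 41.0 RPKM. DES and MYH11 were under 1 RPKM in every library, and MYOCD was at 0.0145 RPKM or less. The summed level of the 8 smooth muscle markers with a row was 11.2 RPKM in both Huh1 libraries and 58.0 and 64.5 RPKM in Huh7, most of it SMTN. Whether these genes and TAGLN differ for a shared reason was not tested.

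TAGLN2, the transgelin of non-muscle cells, was the highest of the 10 genes in all 4 libraries. It was at 287.6 and 343 RPKM in Huh1 and at 593 and 581 RPKM in Huh7. The ratio was 1.19 in Huh1 (1.15 to 1.23) and 0.979 in Huh7 (0.954 to 1.00). The directions were opposite, but the interval in Huh7 included no difference. TAGLN held 0.783% and 0.955% of the transgelin RPKM in Huh1, and 3.49% and 7.11% in Huh7.

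CALD1, caldesmon, which binds actin, tropomyosin and myosin, had nearly the same ratio in both lines. It was at 59.5 and 72.7 RPKM in Huh1 (ratio 1.22, 1.17 to 1.28) and at 153 and 188 RPKM in Huh7 (ratio 1.23, 1.19 to 1.27). MYL9 was at 17.2 and 20.6 RPKM in Huh1 (ratio 1.19, 1.08 to 1.33) and at 50.6 and 78.4 RPKM in Huh7 (ratio 1.55, 1.46 to 1.65). Its difference was thus the larger in Huh7, by 0.38 on the log2(RPKM + 1) scale, with a sampling SD of 0.085 and no test over cultures. MYL9 shares much of its coding sequence with MYL12A and MYL12B, so reads between them may be split in a way not known here.

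Over the 10 genes, 9 were above 0 in Huh1 and 8 in Huh7, with medians of 0.25 and 0.36 on the log2(RPKM + 1) scale, where the medians of all genes compared were 0.023 and 0.033. A single gene, TPM4, was 2-fold higher in Huh1, where 0.32% of all genes were 2-fold higher and 0.174% 2-fold lower. In Huh7, where 0.873% of all genes were 2-fold higher and 0.7% 2-fold lower, 2 of the 10 were higher and 0 lower. Nothing is read from these counts, because the choice of genes used this contrast. The order of levels changed most for TPM4 in Huh1, where it stood in place 7 of the 10 with NCsiRNA and in place 3 with CDCA8siRNA. In Huh7 it stood in places 4 and 2.

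**Figure D3:**
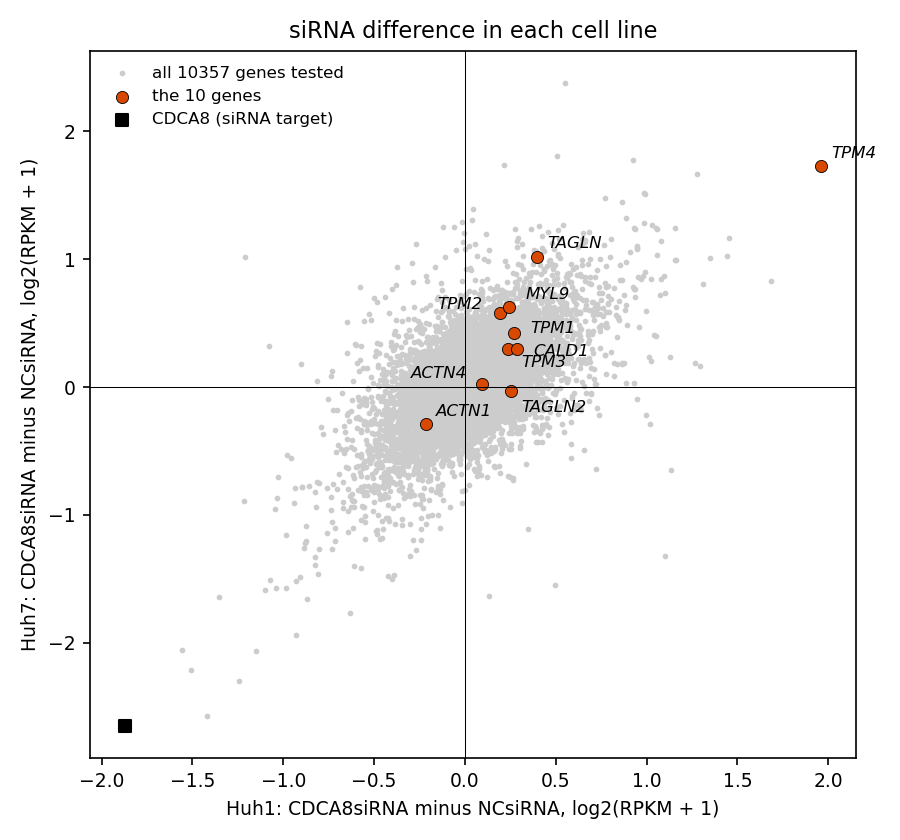
Difference between CDCA8siRNA and NCsiRNA on the log2(RPKM + 1) scale in Huh1 (horizontal) and Huh7 (vertical), with all 10357 genes tested in grey, the 10 genes in orange and CDCA8 as a black square. TPM4 lies alone at 1.96 and 1.73, ACTN1 is below 0 on both axes and TAGLN2 falls to either side of 0.

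The rule that chose the genes did not name the difference between Huh7 and Huh1, though earlier results of these data were known when they were chosen. This difference was tested with limma over both siRNAs. All 10 genes were higher in Huh7 than in Huh1 under each siRNA. The ratio of Huh7 to Huh1 was largest for TPM2, at 36.9 with NCsiRNA and 47.3 with CDCA8siRNA. TAGLN followed at 9.44 and 13.4, then TPM4 at 8.86 and 7.29 and MYL9 at 2.93 and 3.81. ACTN1, ACTN4 and CALD1 lay together between 2.44 and 2.61, TAGLN2 was at 2.06 and 1.69, TPM1 at 1.38 and 1.53, and TPM3 was the smallest at 1.23 and 1.28.

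Of the 9 genes tested, all 9 were called higher in Huh7 at an adjusted p under 0.05, where 39.1% of all 10357 genes were called higher in Huh7 and 28.7% higher in Huh1. TPM4 was left out of this test, since its selection weighed the disagreement between the lines, which is the error term of the fit. The fitted difference on the log2(RPKM + 1) scale was 5.20 for TPM2 (SE 0.11, adjusted p = 2.1e-09) and 3.09 for TAGLN (SE 0.15, adjusted p = 1.51e-07). It was 1.69 for MYL9 (SE 0.11), 1.36 for CALD1 (SE 0.080), 1.34 for ACTN4 (SE 0.077), 1.30 for ACTN1 (SE 0.089) and 0.90 for TAGLN2 (SE 0.083), each with an adjusted p of 1.02e-05 or less. The smallest were 0.53 for TPM1 (SE 0.089, adjusted p = 0.000535) and 0.32 for TPM3 (SE 0.094, adjusted p = 0.0138). Without siRNA as a covariate the adjusted p was 0.0594 for TPM1 and 0.146 for TPM3. The fit had 1 residual degree of freedom and measured whether a difference was alike under both siRNAs, not the spread between cultures.

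In the order of line differences, TPM2 stood apart from all others. CALD1, ACTN4 and ACTN1 were neighbours whose fitted differences lay within 1 SE of each other. Fibroblast markers also differed between the lines. Their summed level was 12.1 and 25.9 RPKM in Huh1 and 299 and 387 RPKM in Huh7, with 1 of 9 markers at 1 RPKM or more in Huh1 and 5 of 9 in Huh7. LUM was the highest of them in every library, at 12.0 and 25.6 RPKM in Huh1 and 143 and 190 RPKM in Huh7. COL1A1 was at 0.115 and 0.122 RPKM in Huh1 and at 107 and 125 RPKM in Huh7. COL1A2, COL3A1 and PDGFRA were likewise under 1 RPKM in Huh1 and above it in Huh7. DCN and PDGFRB stayed under 1 RPKM in every library, and THY1 and FAP at or near 0. The part of this in the line differences was not tested.

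**Figure D4:**
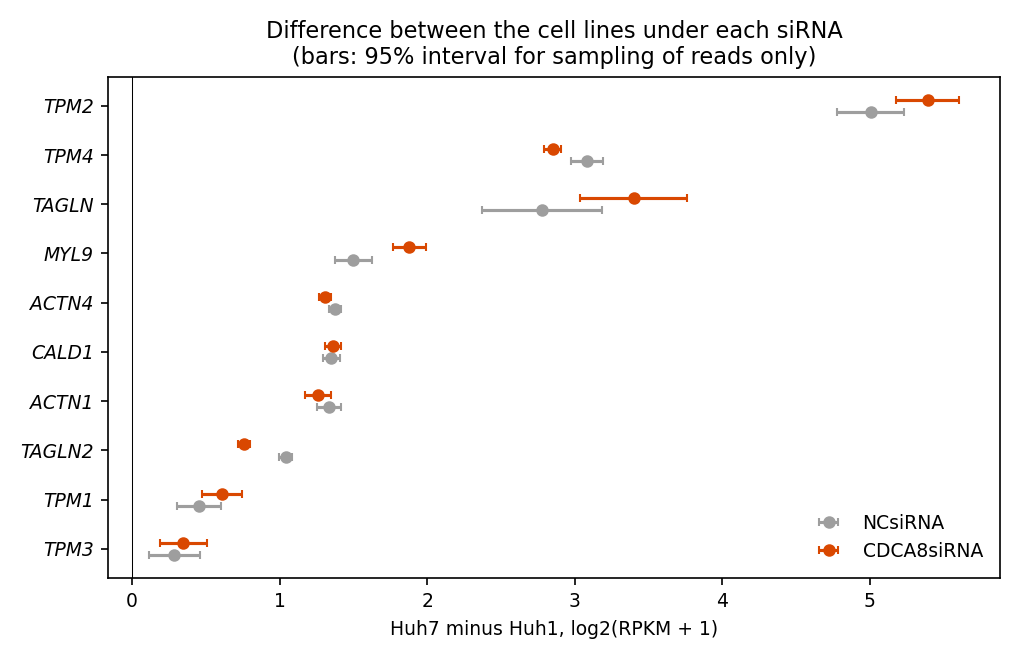
Difference between Huh7 and Huh1 on the log2(RPKM + 1) scale for each of the 10 genes, with NCsiRNA in grey and CDCA8siRNA in orange. Bars are 95% intervals for the sampling of reads only, and all points lie above 0, from 0.29 (TPM3) to 5.39 (TPM2).

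The other genes of actin filaments were taken from 9 lists holding 115 genes, of which 113 had a row and 90 passed the filter on low values in both lines. Of these 90, 19 rose and 3 fell with CDCA8siRNA at an adjusted p under 0.05 in limma with the cell line as a covariate. That is 21.1% and 3.33%, against 6.03% of all genes that rose and 4.21% that fell. The lists were chosen with earlier results of these data known, so these shares are a description. The error term behind these calls, and behind each SE and adjusted p below, was the disagreement between the lines moderated over all genes. It did not measure the spread between cultures. The median difference was 0.17 in Huh1 and 0.20 in Huh7, where the medians of all genes compared were 0.023 and 0.033. Of the 90, 64 were above 0 in both lines. The share of all genes above 0 in both lines was not computed, so nothing is read from this count. Of the 90, 0 passed 2-fold in Huh1 and 3 did in Huh7, namely LCP1 (higher), TWF1 and ZYX (lower). Of all genes compared, 0.32% were 2-fold higher and 0.174% 2-fold lower in Huh1, and 0.873% and 0.7% in Huh7. The list genes ACTG2 and CNN1, which were under 1 RPKM in Huh1 and so outside the 90, were 2-fold higher in Huh7, by 1.34 and 1.09 on the log2(RPKM + 1) scale. The calls depended on the fit, since 0 of the 90 were called when low genes were kept in or the covariate was dropped.

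Neither of the 2 actins tested was called. ACTB, the beta-actin gene, was at 1378 and 1713 RPKM in Huh1 and at 3372 and 3709.6 RPKM in Huh7 (0.23, SE 0.064, adjusted p = 0.0551). ACTG1, gamma-actin, was at 398 and 491 RPKM in Huh1 and at 1192 and 1185 RPKM in Huh7 (0.15, SE 0.082, adjusted p = 0.304). The near-identical actin genes may share reads. Of the tropomodulins, which cap tropomyosin-coated filament ends, neither of 2 was called, and TMOD3 had a difference of 0.27 (SE 0.094, adjusted p = 0.101).

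Among crosslinkers and bundlers, 3 of 9 rose and 0 fell. LCP1, or L-plastin, rose, at 87.6 and 113 RPKM in Huh1 and 6.77 and 17.3 RPKM in Huh7 (0.80, SE 0.17, adjusted p = 0.0211). PLS1, another plastin, rose by 0.46 (SE 0.097, adjusted p = 0.0205), and filamin A (FLNA) by 0.44 (SE 0.11, adjusted p = 0.0324). LCP1 and PLS1 were, unlike the 10 genes, higher in Huh1 than in Huh7. In the calponin family beside the transgelins, 1 of 2 rose, CNN2, by 0.38 (SE 0.083, adjusted p = 0.0227).

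Of myosin II and its regulators, 2 of 12 rose and 0 fell. MYH9, the heavy chain of non-muscle myosin IIA, rose, at 70.2 and 97.9 RPKM in Huh1 and 138.8 and 201 RPKM in Huh7 (0.50, SE 0.080, adjusted p = 0.00706). ROCK2, a kinase that raises light chain phosphorylation, rose by 0.40 (SE 0.11, adjusted p = 0.0450). The rise of MYH9 was alike in both lines, at 0.47 and 0.53, a likeness that the limma call itself favours.

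Of the genes of filament turnover, 5 of 22 rose and 2 fell. TMSB10, a thymosin that holds actin monomers, rose, at 1158 and 1679 RPKM in Huh1 and 1336 and 2011 RPKM in Huh7 (0.56, SE 0.060, adjusted p = 0.00129). WDR1, a cofactor of cofilin, rose by 0.56 (SE 0.084, adjusted p = 0.00577), and SSH2, a phosphatase that activates cofilin, by 0.52 (SE 0.12, adjusted p = 0.0295). TWF1, twinfilin, which binds monomers and filament ends, fell, at 77.4 and 46.2 RPKM in Huh1 and 83.8 and 39.7 RPKM in Huh7 (-0.90, SE 0.10, adjusted p = 0.00176). The other that fell, named here after its values were seen, was the cofilin CFL2 (-0.46, SE 0.093, adjusted p = 0.0178).

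Of the nucleators and their partners, 2 of 18 rose and 0 fell. CTTN, cortactin, which binds the Arp2/3 complex at branches, rose, at 82.8 and 127 RPKM in Huh1 and 80.1 and 154.5 RPKM in Huh7 (0.78, SE 0.097, adjusted p = 0.00251). The formin FMNL2 rose by 0.40 (SE 0.11, adjusted p = 0.0495).

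Of the focal adhesion and stress fibre LIM proteins, 6 of 17 rose and 1 fell. FHL2, a LIM-only protein that also acts as a coregulator of transcription, rose, at 5.74 and 11.8 RPKM in Huh1 and 20.9 and 36.8 RPKM in Huh7 (0.85, SE 0.10, adjusted p = 0.00237). VASP, which speeds filament growth, rose by 0.57 (SE 0.096, adjusted p = 0.00879), and ILK, an adhesion scaffold, by 0.48 (SE 0.092, adjusted p = 0.0143). ZYX, zyxin, which binds alpha-actinin and VASP, fell, at 50.2 and 42.4 RPKM in Huh1 and 127.6 and 62.2 RPKM in Huh7 (-0.63, SE 0.15, adjusted p = 0.0340). Like ACTN1, ZYX was thus lower with CDCA8siRNA in both lines. Of SRF and its cofactors, 0 of 6 were called. SRF itself was at 8.75 and 10.5 RPKM in Huh1 and at 14.6 and 22.6 RPKM in Huh7 (0.42, SE 0.12, adjusted p = 0.0549), the largest difference of the 6. ELK1, which had the highest mean RPKM of them, had a difference of 0.16 (SE 0.10, adjusted p = 0.372).

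**Figure D5:**
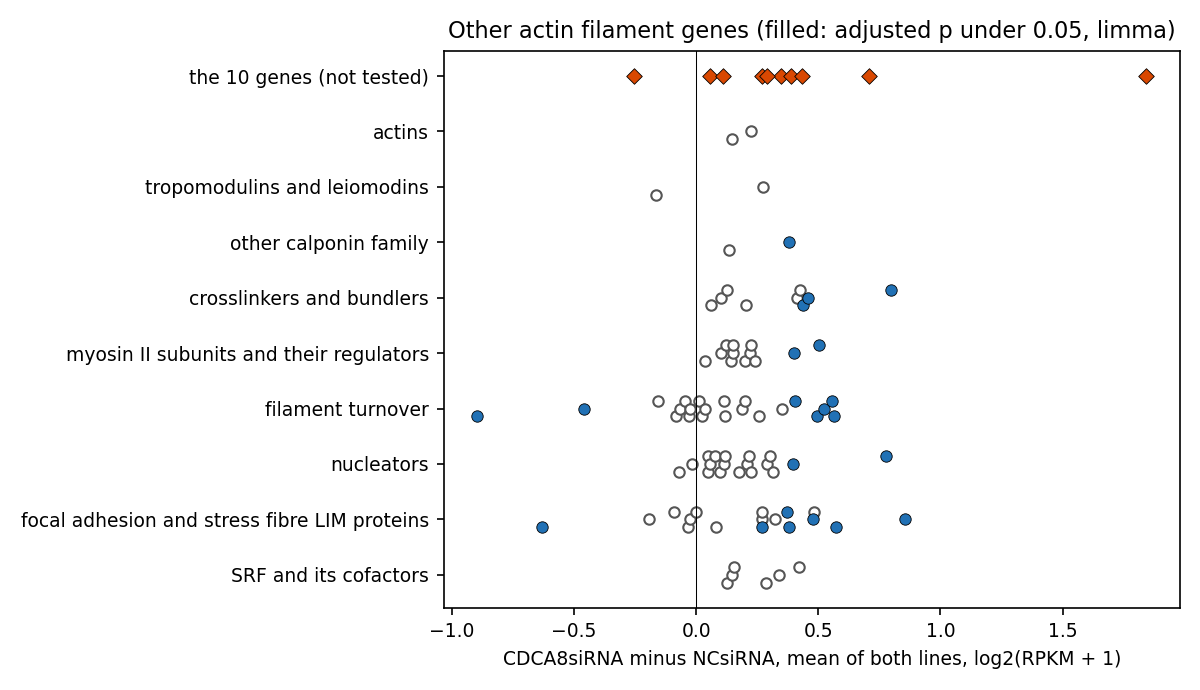
Difference between CDCA8siRNA and NCsiRNA, averaged over both lines, on the log2(RPKM + 1) scale for each of the 90 tested genes of the 9 lists (circles, filled where adjusted p was under 0.05 in limma) and for the 10 genes (diamonds, not tested). TPM4, the diamond at 1.84, lies beyond every circle plotted, of which FHL2 reaches 0.85 and TWF1 -0.90.

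The genes whose pattern over the 4 libraries was most like that of TPM4 were found by the distance between centred log2(RPKM + 1) values, among 10356 other genes. IL8, the chemokine CXCL8, was nearest (distance 0.67), at 7.01 and 24.7 RPKM in Huh1 and 84.9 and 151 RPKM in Huh7. CYR61, a matricellular protein and known target of YAP, was next (0.78), at 8.83 and 24.0 RPKM in Huh1 and 113 and 229 RPKM in Huh7. FGF19, a hormone that curbs bile acid synthesis, followed (0.92), at 0.210 and 1.06 RPKM in Huh1 and 8.21 and 24.7 RPKM in Huh7. The annexin ANXA3 (1.03) and lysozyme, LYZ (1.13), came next. All 5 were higher in Huh7 and higher with CDCA8siRNA in both lines, directions that a search for the pattern of TPM4 favours. Of the 10 genes, TAGLN was the most like TPM4, in 7th place with a distance of 1.22, followed by MYL9 in place 143 (1.93), while the tropomyosins TPM1, TPM2 and TPM3 were farther off, at 2.86, 2.68 and 3.08. With 4 libraries, this is a description of these samples.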

How the data were processed

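Total RNA was taken with Trizol and made into libraries with the Illumina TruSeq kit, per the labels. The authors deposited 1 RPKM value for each of 18398 RefSeq transcript rows per library. The unit was deduced from the values. The submitters' processing notes list CASAVA 1.8.2, TopHat2 2.0.9 and hg19, while the counting tool, annotation and use of strand are not given in the sources used here. Reads behind a value were estimated from its RPKM, the constant of its library and GENCODE 29 transcript lengths (17768 rows matched, 630 did not), and are off where the authors used another length. Differences were taken on log2(RPKM + 1), which understates changes of low genes, leaving out genes under 1 RPKM in both libraries of a pair. limma 3.58.1 in R 4.3.3 (lmFit, eBayes with trend) was fitted to all 4 libraries with siRNA and cell line as terms, and p-values were adjusted by Benjamini-Hochberg over 10357 genes. The fit was tested on simulated data in which each siRNA effect put in was the same in both lines. The spread between libraries was assumed there, so that test does not bear on the spread between cultures here. Figures were drawn with matplotlib 3.10.9, and Python 3.11.15 did the rest.

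The genes named in the text were the 10 genes, CDCA8, ACTB, ACTG1 and MYH9, up to 4 called genes with the largest change in each list (or, where none was called, the gene with the highest mean RPKM), the 5 genes most like TPM4 and those next to TPM4 in the order that selected it. The 10 genes and the lists were chosen with earlier results of these data known. Promoter windows came from RefSeq (GRCh38.p14); no coordinates were taken from the libraries. Alternatives were a pseudocount of 0.1 RPKM, no filter, a minimum of 5 RPKM, quantile normalization, upper quartile scaling, limma without trend and limma without the covariate. No library was left out.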

Additional observations from a re-analysis of the deposited data

Results flagged for a closer look

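The siRNA difference of TAGLN2 was 0.25 in Huh1 and -0.03 in Huh7 on the log2(RPKM + 1) scale, a difference between the lines (Huh7 minus Huh1) of -0.28 with a sampling SD of 0.031. The siRNA difference of ACTG1 was 0.30 in Huh1 and -0.01 in Huh7, a difference between the lines of -0.31. Both were above 0 in Huh1 and slightly below 0 in Huh7, and with 1 library per condition the difference between the lines was not tested.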

How the results depend on the processing

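With a pseudocount of 0.1 RPKM, 164 genes passed 2-fold in Huh1 and 422 in Huh7, against 54 and 182 with 1 RPKM. The siRNA calls of limma fell to 0 genes with no filter (2050 at an unadjusted p under 0.05) and to 0 without the covariate (89 unadjusted), against 1061 of 10357 (2694 unadjusted). Of the actin filament lists, 0 genes were then called higher and 0 lower in either setting, while 29 were called higher with quantile normalization and 9 without the trend, against 19. Without the trend, 443 genes were called higher and 267 lower, against 625 and 436.

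Of the 9 genes tested between the lines, between 7 and 9 stayed called higher in Huh7. With no filter the adjusted p was 0.0502 for TPM1 and 0.0531 for TAGLN2, and without the covariate it was 0.0594 for TPM1 and 0.146 for TPM3. TAGLN was under the minimum of 5 RPKM in Huh1 and was then not tested. Quantile normalization moved the median line difference of all genes with NCsiRNA from 0.10 to -0.02. Differences of the 10 genes were recomputed with the pseudocount of 0.1 RPKM, quantile normalization and upper quartile scaling, 120 in all. None of these changed sign, and 107 lay within the sampling interval. Of 16 tropomyosin shares taken by reads in place of RPKM, 14 lay outside it. Depth limits TAGLN and TPM2 in Huh1 most, and the length table limits every estimate of reads. The covariate pairs the siRNAs within each line. The labels carry no replicate numbers to use as a block, and leaving out a library would leave no residual degree of freedom.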
